A study of Mus musculus with 28 samples.

Results

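The unfolded protein response and the integrated stress response were followed through 10 of their genes, Hspa5, Dnajb9, Sdf2l1, Creld2, Herpud1, Xbp1, Atf4, Ddit3, Trib3 and Asns. The set was defined by these gene symbols, each was found by its Ensembl identifier among the 49585 features of the liver count table, and all 10 were among the 21583 genes tested. RNA-seq was made from whole livers of C57BL/6JOlaHsd mice aged 5 to 7 months, fed standard chow and, per the study, fasted for 4 h, in 4 groups of 7 liver libraries each, namely WT and SIRT6-tg males and WT and SIRT6-tg females. The SIRT6-tg mice carried extra SIRT6, an NAD-dependent deacylase, and per the study's methods all came from a single transgenic line that had been backcrossed to this strain, with wild type littermates as controls. A single line cannot separate the effect of the protein from that of the insertion site.

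The endoplasmic reticulum (ER) folds the proteins that a hepatocyte secretes, and the unfolded protein response adjusts its capacity through the sensors ATF6, IRE1 and PERK. ATF6 and the spliced form of XBP1 raise the transcription of chaperones and of the machinery that removes misfolded proteins, whereas PERK and the other eIF2 kinases slow general translation and favour translation of ATF4, which raises CHOP (the product of Ddit3) and genes of amino acid metabolism. In liver these pathways follow feeding, amino acid supply and secretory load. Counts per gene measure the amount of mRNA only, so neither the splicing of Xbp1 nor the translation of Atf4 was seen here.

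The libraries held between 18758863 and 35393069 counts. Sirt6, the overexpressed gene, lay between 1.69 and 3.24 CPM (each count relative to its library size, on library sizes scaled by the trimmed mean of M values, TMM) in male WT and between 198 and 358 in male SIRT6-tg, against 1.80 to 6.22 in female WT and 16.4 to 50.2 in female SIRT6-tg. By Sirt6 every library matched its genotype label, and Sirt6 rose further in males. TMM factors ran from 1.06 to 1.17 in male WT and from 0.82 to 0.99 in male SIRT6-tg. The choice of scaling therefore bears on the male comparison: the median log2 fold change over all tested genes was 0.056 with TMM, 0.015 with size factors, -0.023 with upper-quartile scaling and -0.22 with library size alone. Markers of other cell types differed between the male groups. All 10 T cell markers and all 10 macrophage markers were lower in male SIRT6-tg, with summed levels of 5.71 to 8.71 CPM against 18.4 to 55.3 for T cells and 469 to 800 CPM against 582 to 1851 for macrophages. Of 15 secreted hepatocyte proteins, such as Alb, 9 rose and none fell, with summed levels of 145681 to 202382 CPM in male SIRT6-tg and 119637 to 155957 in male WT. In whole tissue, fewer cells of a type and less RNA per cell cannot be told apart. Among the other marker lists, 6 of 10 B and plasma cell and 6 of 10 stellate and endothelial cell markers fell. No cholangiocyte marker of 6 was called. Of 8 tested markers of pancreatic acinar cells 2 fell and 1 rose, while Amy2a5 was at 0 in every male library. Of genes that follow feeding, 1 of 8 fed-state (12.5%) and 2 of 8 fasting genes (25.0%) rose in males. Beside all these counts, 20.7% of all tested genes were called in males, 9.68% as higher. In females no gene of these lists was called. The part of these shifts in the results below was not tested.

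Promoters were read for all 10 genes from RefSeq (GRCm38.p6), as 250 bases before and 50 after the annotated start. The ER stress response element (ERSE, CCAAT and CCACG with any 9 bases between them), at which ATF6 and NF-Y bind, was found in 2 of the 10 promoters, and in 0.119% of 32851 promoters of all genes. The shorter ERSE-II (ATTGG and CCACG with any 1 base between them) was found in 1, Herpud1, and in 0.0365% of all promoters. The core that ATF4 binds with C/EBP partners (TGATGNAA) was found in 3, Herpud1, Trib3 and Asns, and in 3.97% of all promoters. The XBP1 site TGACGTGG, found in 0.676% of all promoters, was in none of the 10, nor was TGACGTCA, the cAMP response element, found in 1.79%, nor the longer ATF4 site TGATGNAAT, found in 0.965%. CCACG alone was in 7 of the 10 and in 32.8% of all promoters. Both strands were searched with exact letters, CCACG being part of both ERSE forms and the ATF4 core part of the longer site. A match is only a description of the sequence, and no match says only that these letters are not in the window. Of the 5 promoters with a match to ERSE, ERSE-II or the ATF4 core, 4 are shown as examples, 5′ to 3′ on the strand of the gene, with the fixed letters of ERSE, ERSE-II or the ATF4 core in capitals, reading as their reverse complement in Creld2 and, for the ATF4 core, in Herpud1.
Hspa5, chr2:34771840-34772139, plus strand, ERSE: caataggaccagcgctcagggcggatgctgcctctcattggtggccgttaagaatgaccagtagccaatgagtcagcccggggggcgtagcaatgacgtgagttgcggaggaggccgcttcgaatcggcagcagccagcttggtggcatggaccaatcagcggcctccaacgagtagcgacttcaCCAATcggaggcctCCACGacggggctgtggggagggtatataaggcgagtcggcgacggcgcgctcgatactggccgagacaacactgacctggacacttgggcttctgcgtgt
Creld2, chr15:88819396-88819695, plus strand, ERSE: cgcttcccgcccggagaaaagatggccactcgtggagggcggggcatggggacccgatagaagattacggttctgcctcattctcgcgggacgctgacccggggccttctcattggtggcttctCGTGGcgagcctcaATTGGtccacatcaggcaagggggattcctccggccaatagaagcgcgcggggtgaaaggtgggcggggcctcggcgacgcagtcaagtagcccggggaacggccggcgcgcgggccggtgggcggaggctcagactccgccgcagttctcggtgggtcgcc
Herpud1, chr8:94386179-94386478, plus strand, ATF4 core and then ERSE-II: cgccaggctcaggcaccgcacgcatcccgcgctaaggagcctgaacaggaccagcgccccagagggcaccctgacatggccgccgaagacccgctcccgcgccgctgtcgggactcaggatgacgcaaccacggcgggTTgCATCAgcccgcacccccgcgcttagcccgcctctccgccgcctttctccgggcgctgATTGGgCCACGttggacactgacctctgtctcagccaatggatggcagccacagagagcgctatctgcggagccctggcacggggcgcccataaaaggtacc
Asns, chr6:7693160-7693459, minus strand, ATF4 core: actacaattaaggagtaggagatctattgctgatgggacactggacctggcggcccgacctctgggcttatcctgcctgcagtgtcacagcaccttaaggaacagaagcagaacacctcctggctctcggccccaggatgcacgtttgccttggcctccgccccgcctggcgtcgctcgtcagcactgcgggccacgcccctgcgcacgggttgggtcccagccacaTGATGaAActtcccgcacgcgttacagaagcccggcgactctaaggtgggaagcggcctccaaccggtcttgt

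Levels per length of the annotated exons were compared between genes within male WT, in CPM per kilobase. Hspa5, the abundant ER chaperone BiP, had the highest median, 147, and Herpud1 followed at 120 with an overlapping range. Xbp1 followed at 67.1 and Atf4 at 36.4, and the range of each was apart from that of the next gene by median. Dnajb9 at 21.7, Sdf2l1 at 21.5 and Creld2 at 19.7 overlapped one another, and through single livers Sdf2l1 reached 63.9 and Creld2 91.0, across the levels of Atf4 and Xbp1. Trib3 at 7.13, Ddit3 at 3.41 and Asns at 2.87 were lowest, and each overlapped the next. The spread between livers was unequal too. In male WT the coefficient of variation of the CPM was 9.53% for Dnajb9 and 93.9% for Creld2, and in female WT it reached 167% for Asns. The plot of levels shows that much of this spread came from single livers.

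**Figure D1:**
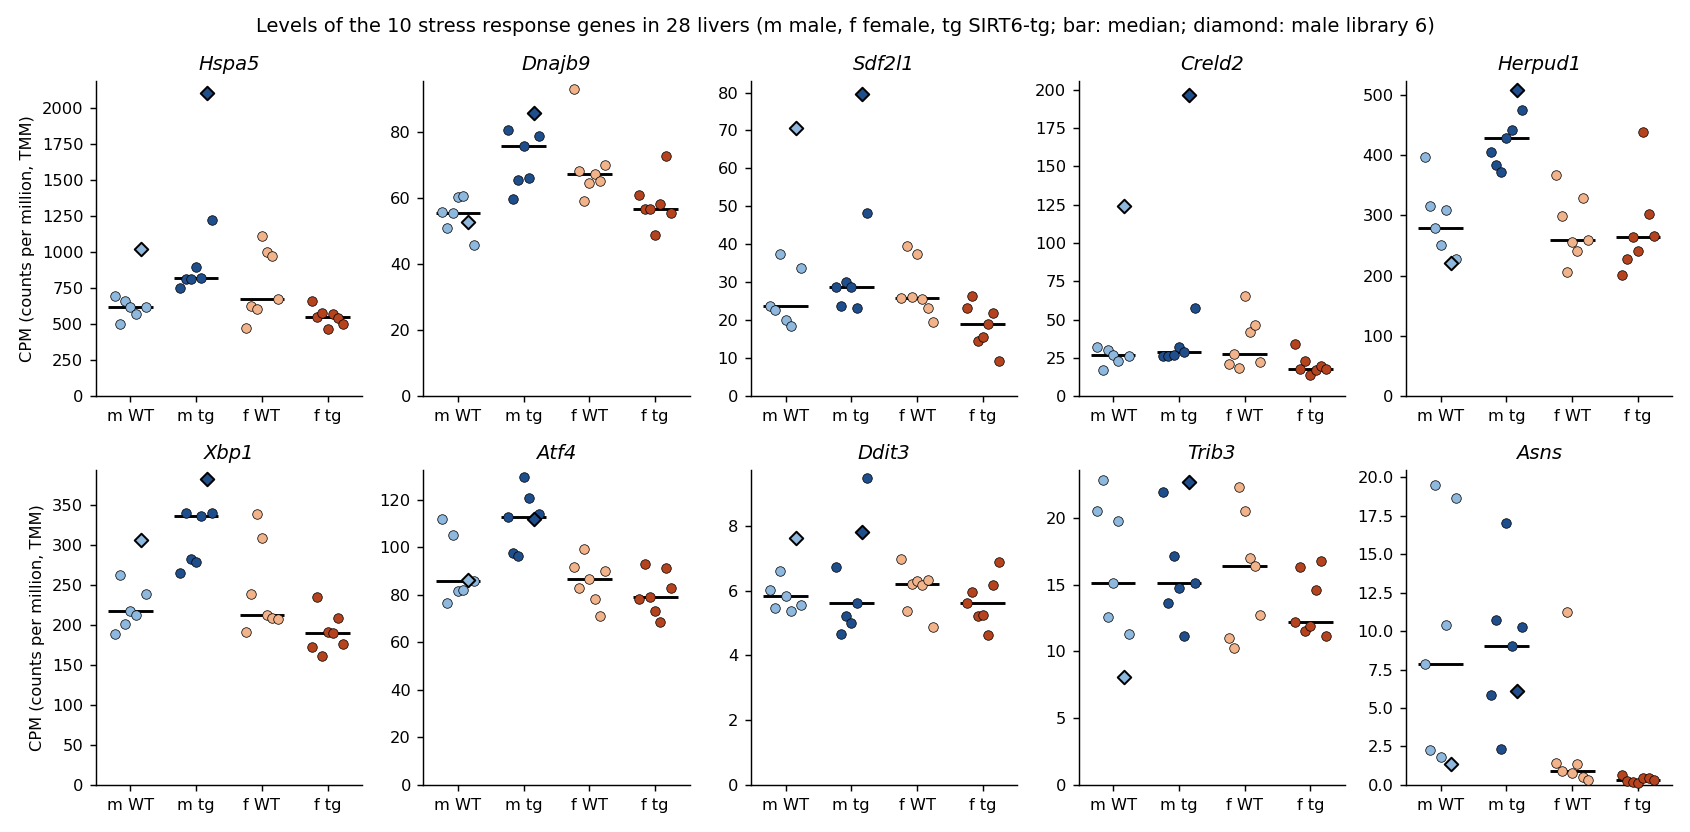
CPM (TMM-scaled; linear axes from 0) of the 10 genes in each of 28 livers, 7 per group; bars mark group medians and diamonds the male libraries numbered 6. Herpud1 and Dnajb9 shift upwards across the male SIRT6-tg group, Creld2 is set apart by 124 CPM in 1 male WT and 196 CPM in 1 male SIRT6-tg liver, and Asns is under 1.5 CPM in all female livers but 1.

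In males, 5 of the 10 genes passed the test between SIRT6-tg and WT (edgeR quasi-likelihood test, Benjamini-Hochberg adjusted p under 0.05 over all 21583 genes), and all 5 were higher in SIRT6-tg. Over all tested genes 20.7% were called, 9.68% as higher. The 5 were Herpud1, Dnajb9 and Hspa5 of the ER folding and degradation machinery and the transcription factors Xbp1 and Atf4. The fold changes of 9 genes were above 0 and the median over the 10 was 0.37 on the log2 scale, against 0.056 over all tested genes. In no gene were the ranges of both male groups apart, which was the case for 6.98% of all genes. The count of 5 was unchanged without both male libraries numbered 6, and was 3 with each sex fitted separately (Herpud1, Dnajb9 and Xbp1), 2 with upper-quartile scaling (Herpud1 and Dnajb9) and 0 with library size alone. Relative to the median of all genes under the same scaling, the changes over the 4 scalings were 0.59 to 0.61 for Hspa5, 0.53 to 0.54 for Herpud1, 0.38 to 0.39 for Xbp1, 0.36 to 0.37 for Dnajb9 and 0.25 to 0.26 for Atf4. A scaling moves all genes by nearly the same amount, so this closeness was given in advance and bears on no call.

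Herpud1 (chr8:94386438-94395377, GRCm38) encodes a membrane protein that organises ER-associated degradation. Its level was 221 to 396 CPM with a median of 279 in male WT, and 371 to 507 with a median of 428 in male SIRT6-tg. Of the 7 SIRT6-tg livers, 5 lay above every WT liver, and the groups overlapped through a single WT liver at 396 CPM. Herpud1 was higher by 0.59 on the log2 scale (SE 0.15, edgeR adjusted p = 0.00425). Every fit that left out 1 library kept this call, with values of 0.51 to 0.66.

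Dnajb9 (chr12:44205559-44210326), which encodes ERdj4, an ER co-chaperone of BiP and a classical XBP1 target, lay at 46.0 to 60.7 CPM (median 55.4) in male WT and at 59.7 to 85.8 (median 75.7) in male SIRT6-tg. All WT livers were exceeded by 6 of 7 SIRT6-tg livers. The log2 fold change was 0.42 (SE 0.10, edgeR adjusted p = 0.00271), and it was past the threshold with any 1 library left out.

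Hspa5 (chr2:34771970-34777547), whose promoter holds the ERSE shown above, lay at 503 to 1021 CPM (median 620) in male WT and at 755 to 2106 (median 820) in male SIRT6-tg. The highest value in each group came from the liver numbered 6, and the other 6 livers of each group did not exceed 698 and 1226. Only 2 SIRT6-tg livers were above every WT liver, although all 7 were above the WT median. The log2 fold change was 0.66 (SE 0.20, edgeR adjusted p = 0.0195). It was 0.40 with an adjusted p of 0.103 without SIRT6-tg liver 6, 0.54 with 0.0167 without both livers numbered 6, and the adjusted p was 0.0572, 0.0556 and 0.0562 without WT liver 2, 4 or 7.

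Xbp1 (chr11:5520659-5525893), the transcription factor downstream of IRE1, lay at 189 to 307 CPM (median 218) in male WT and 265 to 383 (median 337) in male SIRT6-tg. All SIRT6-tg livers were above the WT median and 4 were above every WT liver. The log2 fold change was 0.45 (SE 0.13, edgeR adjusted p = 0.0113). Atf4 (chr15:80255184-80257541), the transcription factor at the centre of the integrated stress response, lay at 76.4 to 112 CPM (median 85.7) in male WT and 96.4 to 130 (median 113) in male SIRT6-tg. Here too all 7 were above the WT median and 4 above every WT liver, and 2 WT livers at 105 and 112 lay within the SIRT6-tg range. The log2 fold change was 0.32 (SE 0.097, edgeR adjusted p = 0.0186), with an adjusted p of 0.0655, 0.0772 or 0.0698 without WT liver 2, 4 or 7 and 0.0606 without SIRT6-tg liver 4. Relative to the median of the secreted hepatocyte genes, which was itself 0.39, the changes of Hspa5, Herpud1, Xbp1, Dnajb9 and Atf4 were 0.27, 0.20, 0.059, 0.032 and -0.075, values for which no test was made.

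In the remaining ER genes 1 male liver of each group stood far above the rest. Creld2 (chr15:88819646-88826683), an ER-resident disulphide isomerase-like protein, lay at 17.1 to 32.2 CPM in 6 male WT livers and at 124 in WT liver 6, and at 26.02 to 57.5 in 6 male SIRT6-tg livers and at 196 in SIRT6-tg liver 6. Its log2 fold change was 0.50 (95% interval -0.42 to 1.42, adjusted p = 0.511), and it was -0.29 without SIRT6-tg liver 6 and 1.12 without WT liver 6. Sdf2l1 (chr16:17130138-17132383), a component of ER chaperone complexes, showed the same 2 livers as highest, at 70.8 CPM in WT and 79.5 in SIRT6-tg against group medians of 23.8 and 28.8. Its log2 fold change was 0.21 (95% interval -0.37 to 0.79).

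The genes on the CHOP and ATF4 side other than Atf4 did not pass in males. Ddit3 (chr10:127290774-127296288), the gene of the pro-apoptotic factor CHOP, had medians of 5.84 CPM in male WT and 5.62 in male SIRT6-tg, with counts of 107 to 225 per library, and a 95% interval of -0.20 to 0.33 around a log2 fold change of 0.065. Part of its exons is shared with the antisense gene Mars, and the library kit does not mark strand, so reads there cannot be told apart. Trib3 (chr2:152337422-152344032), a pseudokinase induced by ATF4 and CHOP, had medians of 15.1 CPM in both groups and a log2 fold change of 0.080 (95% interval -0.32 to 0.48). Asns (chr6:7675169-7693254), the asparagine synthetase gene and a standard readout of ATF4, ranged from 1.35 to 19.5 CPM in male WT and from 2.32 to 17.04 in male SIRT6-tg. Male WT livers ranged from 3 livers at 1.35 to 2.30 CPM to 2 at 18.6 and 19.5, and the log2 fold change of -0.021 had a 95% interval of -1.24 to 1.198, so that a change of 1 in either direction was not detectable here.

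In females none of the 10 genes passed the test, where 0.0278% of all tested genes, 6 in number, did. All 10 fold changes were below 0 with a median of -0.30, against 0.0026 over all genes, though the sign for Herpud1, at -0.014, turned with library size alone, with 2 surrogate variables and without some single livers. By unadjusted p, 4 of the 10 were under 0.05, as were 1212 of all 21583 genes, and DESeq2 called 1, Asns, among 44 genes in all. Hspa5 lay at 476 to 1109.5 CPM (median 677) in female WT and at 467 to 659 (median 552) in female SIRT6-tg. Of the 7 WT livers, 4 stood above all SIRT6-tg livers, so that no SIRT6-tg liver exceeded the WT median. The log2 fold change was -0.50 (SE 0.20, edgeR adjusted p = 0.733). Dnajb9 lay at 59.0 to 93.2 CPM (median 67.3) in female WT and 48.7 to 72.7 (median 56.8) in female SIRT6-tg, and 5 of 7 SIRT6-tg livers were below every WT liver. Its log2 fold change was -0.25 (SE 0.10, edgeR adjusted p = 0.705). Xbp1 lay at 191 to 340 CPM (median 213) against 162 to 236 (median 190), with 4 SIRT6-tg livers below all WT livers and a log2 fold change of -0.35 (SE 0.13, edgeR adjusted p = 0.587).

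Asns was the gene with the widest female difference. It lay at 0.29 to 1.43 CPM in 6 female WT livers and at 11.3 in the liver numbered 3, and at 0.15 to 0.63 in female SIRT6-tg, where a library held 4 to 14 counts. The groups overlapped, and no SIRT6-tg liver exceeded the WT median of 0.92. The log2 fold change was -2.80 (SE 0.85, edgeR adjusted p = 0.415, DESeq2 adjusted p = 0.0357), and -1.34 with an adjusted p of 0.987 without female WT liver 3. Creld2 at -0.76, Sdf2l1 at -0.60, Trib3 at -0.22, Ddit3 at -0.089 and Atf4 at -0.085 made up the rest with Herpud1, which lay at 206 to 367 CPM (median 259) in female WT and 201 to 438 (median 264) in female SIRT6-tg, the latter range holding the former.

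Whether the genotype effect differed between males and females was tested itself, as the male minus the female log2 fold change, over all 28 libraries. It passed for 3 of the 10 genes, Hspa5, Dnajb9 and Xbp1, against 5.05% of all tested genes and 1.20% in the positive direction. For Hspa5 it was 1.16 (SE 0.29, edgeR adjusted p = 0.0145). For Xbp1 it was 0.80 (SE 0.18, edgeR adjusted p = 0.00693) and for Dnajb9 0.67 (SE 0.14, edgeR adjusted p = 0.00442). These 3 calls stood in every fit that left out 1 library and in the fit without both male livers numbered 6, and none stood with library size alone, where the adjusted p was 0.100 for Xbp1, 0.0576 for Hspa5 and 0.0582 for Dnajb9. Herpud1 at 0.61 (adjusted p = 0.0926) and Atf4 at 0.40 (adjusted p = 0.0876), both called in males, did not pass for the difference. Both passed without male WT liver 1, Herpud1 also without female SIRT6-tg liver 5, and Atf4 also with 2 surrogate variables (0.41, adjusted p = 0.0074). All 10 differences were above 0 with a median of 0.74, against 0.034 over all genes, and with library size alone that of Ddit3 was -0.15. Sirt6 itself differed in the same contrast by 3.29, so sex and the strength of overexpression cannot be told apart. The secreted hepatocyte genes had a median difference of 0.53, and relative to it Hspa5 was at 0.63, Xbp1 at 0.27 and Dnajb9 at 0.15, with no test.

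**Figure D2:**
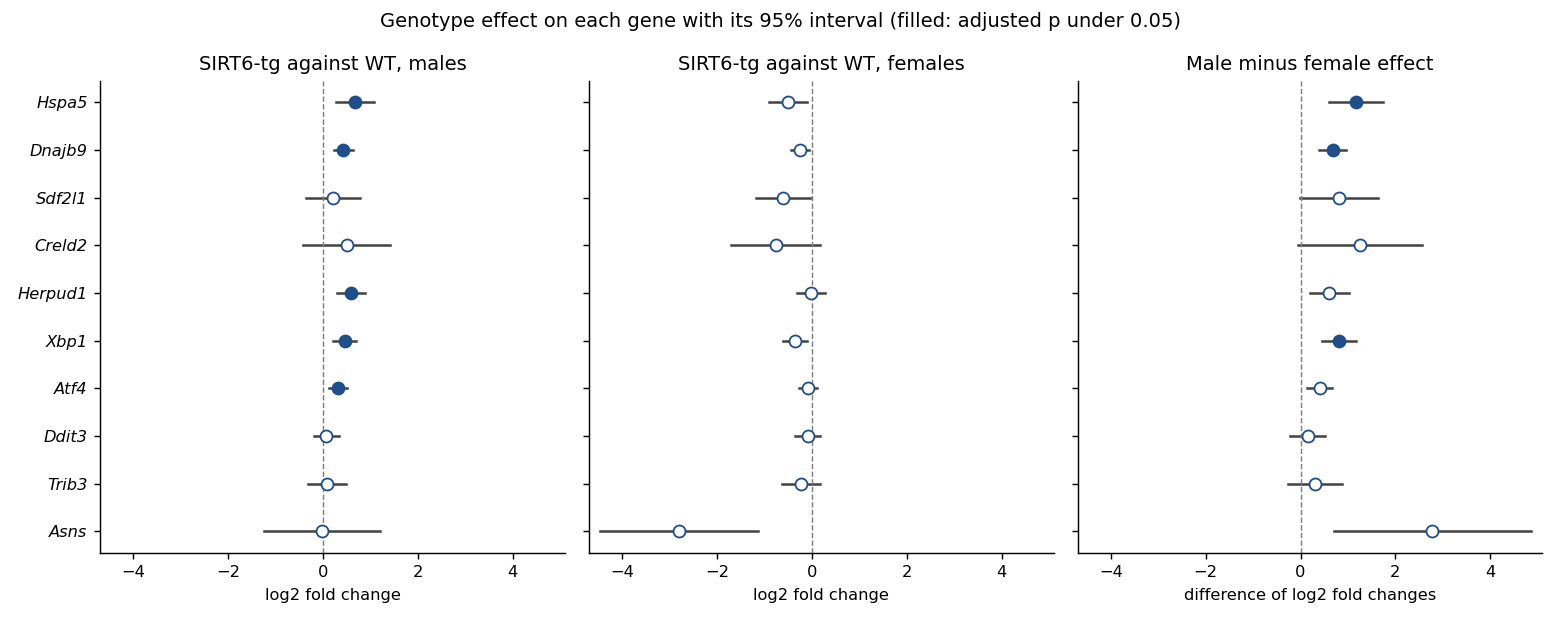
Log2 fold change of SIRT6-tg against WT in males and in females, and the male minus female difference, for each gene; points are estimates, lines 95% intervals, and filled points passed an adjusted p of 0.05. In males 5 genes are filled to the right of 0, in females all 10 points lie left of 0 and none is filled, and in the difference Hspa5, Dnajb9 and Xbp1 are filled.

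Between the sexes without the transgene, 1 of the 10 genes passed, where 12.4% of all tested genes did and 5.71% were lower in males. Dnajb9 was lower in male WT than in female WT by 0.35 on the log2 scale (SE 0.10, edgeR adjusted p = 0.0184), with 5 of 7 male livers below every female liver, and its adjusted p was 0.0663 without male WT liver 7 and 0.0639 without female WT liver 1. With library size alone it was at -0.16 (edgeR adjusted p = 0.243). Relative to the secreted hepatocyte genes, whose median in this comparison was -0.24, it was at -0.11, with no test. All 10 T cell markers were called higher in male WT than in female WT. The part of such shifts here was not tested. Asns was higher in male WT by 1.86 (SE 0.66, edgeR adjusted p = 0.0652). All 7 male livers exceeded the female median, but only 2 exceeded every female liver, because of female WT liver 3. Without that liver the difference was 3.32 with an edgeR adjusted p of 0.000433. It was called as well without male WT liver 2, 4 or 6 and with DESeq2 (adjusted p = 0.0278). With edgeR it was also called with the filterByExpr count filter (0.0379), the replicate block (0.0457) and library size alone (0.0290). No other fit that left out 1 library called Asns. The difference was 1.54 without male WT liver 3, and the edgeR adjusted p was 0.155 without male WT liver 7.

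The genes were next compared for whether they varied together between livers of the same group, by correlating log2 CPM over 28 libraries after subtracting each group's mean, in all 45 pairs. Hspa5 and Creld2, the 2 genes with an ERSE in the promoter, were the closest pair. Pearson's r was 0.94 and Spearman's rho 0.96, each with a permutation p of 1e-05, the smallest that 100000 permutations can give, and 0.00045 after adjustment over the 45 pairs. The r was 0.91 to 1.00 within each of the 4 groups of 7, 0.92 without the 2 libraries farthest from the median of the gene first named, and 0.92 without both male livers numbered 6. The other 3 pairs past an adjusted permutation p of 0.05 did not pass without those livers. Sdf2l1 had an r of 0.74 with Creld2 and of 0.65 with Hspa5 (adjusted permutation p = 0.00967 and 0.0165), which were 0.42 and 0.34 without them, with rho of 0.53 and 0.47 in all 28 (adjusted permutation p = 0.102 and 0.12). Xbp1 and Sdf2l1 had an r of 0.52 (adjusted permutation p = 0.0497), 0.46 to 0.61 within the 4 groups and 0.32 without the 2 livers, and this call was lost in 19 of 28 fits that left out 1 library. Without the 2 libraries farthest from the median of Sdf2l1, Hspa5 and Xbp1, respectively, these 3 r were 0.47, 0.38 and 0.49. Atf4 and Asns, factor and readout, had an r of 0.46 and a rho of 0.42 (permutation p = 0.0262 and 0.0441, 0.147 and 0.23 adjusted).

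**Figure D3:**
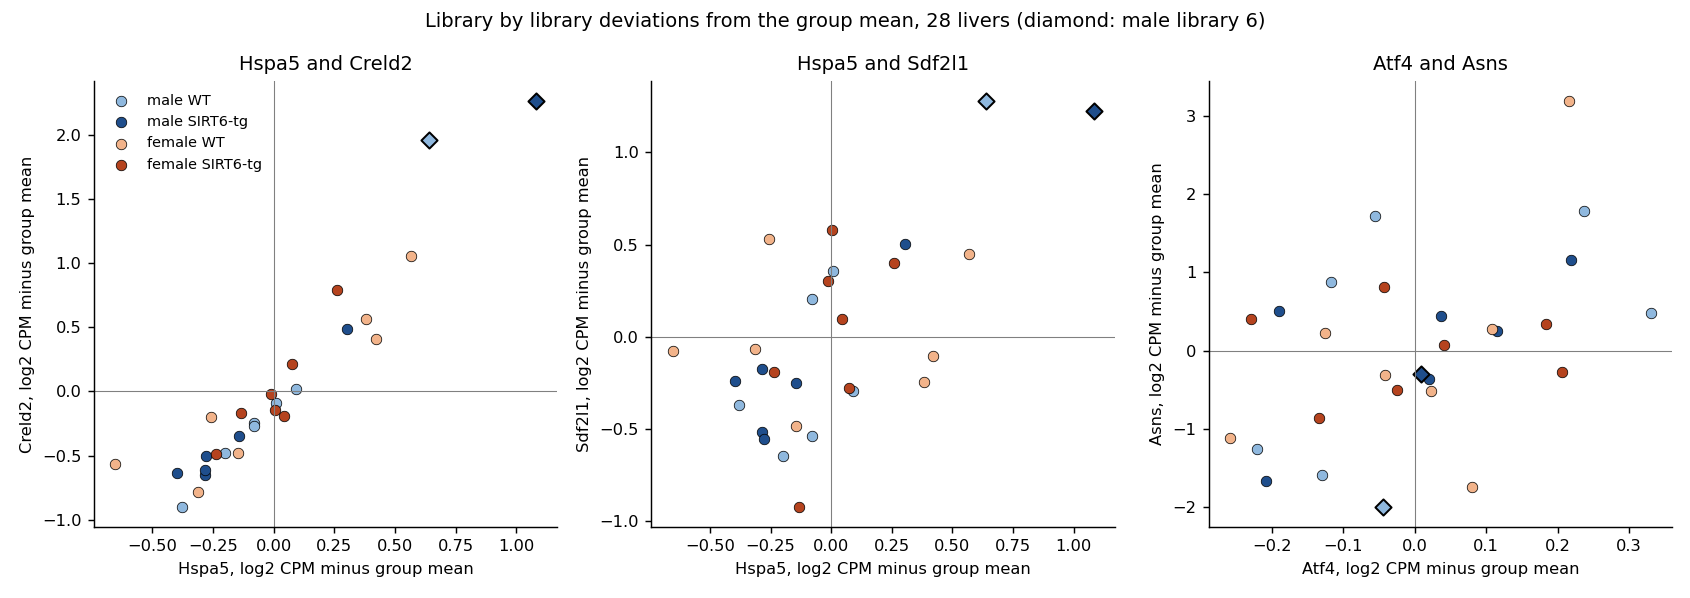
Deviation of each of 28 livers from its group mean, in log2 CPM, for Creld2 against Hspa5, Sdf2l1 against Hspa5 and Asns against Atf4; colours are the 4 groups and diamonds the male livers numbered 6. Creld2 follows Hspa5 in every group (r of 0.94), whereas Sdf2l1 follows it mainly through the 2 diamonds (r of 0.65, 0.34 without them) and Asns scatters widely around Atf4.

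Among 11262 genes other than the 10 members with a mean of 50 or more normalized counts, those most like Hspa5 over the 28 libraries, with group means subtracted, were Manf at an r of 0.97, Stip1 at 0.82, Tnfaip8l1 at 0.82, Hsp90b1 at 0.81 and Pdia3 at 0.81. Manf encodes a BiP-binding protein of the ER, Hsp90b1 the chaperone GRP94 and Pdia3 a disulphide isomerase, while Stip1 encodes the cytosolic co-chaperone HOP. Those most like Asns were Dgat1 at 0.76, Rab34 at 0.72, Cep89 at 0.69, Gal3st1 at 0.67 and Osbpl3 at 0.66. No gene reached 0.8 with Asns, against 7 with Hspa5, members not counted. These values are descriptions over libraries that share depth and scaling.

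The other genes of the pathway were counted from the same fit in 8 lists with 142 tested genes in all. In males 36 passed, 24 higher and 12 lower in SIRT6-tg, which is 25.4% beside the 20.7% over all genes, and the median log2 fold change was 0.21. With upper-quartile scaling 22 passed, 8 higher and 14 lower, and with library size alone 25, 2 higher and 23 lower, so that the balance of directions depended on the scaling. In females none of the 142 passed with edgeR or DESeq2, 23 had an unadjusted p under 0.05 beside 1212 of all 21583 genes, and 37 had a fold change above 0. The difference between the sexes passed for 20, 16 positive and 4 negative, or 14.1% beside 5.05% over all genes. It passed for 11 with upper-quartile scaling, 7 positive and 4 negative, and for 10 with library size alone, all negative.

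Genes that fold, move or remove ER proteins lay mostly above 0 in males, except with library size alone, where 13 of 30, 7 of 20 and 6 of 16 genes of the lists below had a fold change above 0. Of 30 ER chaperones and folding enzymes 5 rose and 1 fell, and 26 had a fold change above 0. Counted in either direction, this share was no higher than the 20.7% over all genes. With upper-quartile scaling 1 rose and 1 fell, and with library size alone none rose and 1 fell. Creld1, a relative of Creld2, rose by 0.39 (SE 0.094) and P4hb, a protein disulphide isomerase, by 0.31 (SE 0.084), while Dnajc10, an ER reductase, fell by 0.25 (SE 0.068). Of 20 genes of ER-associated degradation 4 rose and none fell, and 1 rose with either of those scalings. In either direction the share with TMM was likewise no higher than 20.7%. The rises alone, with TMM, were a larger share of the chaperone and degradation lists than the 9.68% of all genes called as higher. That excess was not tested. Derl2, a channel component, rose from 102 ± 13.4 to 153 ± 25.5 CPM (SD, n = 7), a log2 fold change of 0.58 (SE 0.11, edgeR adjusted p = 0.000276). Of 16 genes of the translocon and signal peptide processing 2 rose, or 12.5%, and none with either of those scalings. They were Srpr of the signal recognition particle receptor by 0.24 (SE 0.067), which was -0.04 with library size alone, and Ssr2 by 0.43 (SE 0.13). The fold change was above 0 for all 20 degradation and all 16 translocon genes. In females the fold change was above 0 for 1 of 30, 4 of 20 and 1 of 16 genes of these lists, with medians of -0.16, -0.062 and -0.13 and no call. The test of the difference passed for 8 of 30 chaperone genes (26.7%), 1 of 20 degradation genes (5.0%) and 1 of 16 translocon genes (6.25%). Over all genes it passed for 5.05%, and the degradation and translocon shares were near that. The 8 became 4 with size factors, 3 with upper-quartile scaling and none with library size alone, where 1 chaperone gene passed as negative. Among the genes that passed with TMM were P4hb at 0.50 (adjusted p = 0.0101), Ppib, a prolyl isomerase, at 0.53 (adjusted p = 0.0107), Hyou1, an ER exchange factor and chaperone, at 1.23 (adjusted p = 0.0216), Derl2 at 0.62 (adjusted p = 0.017) and Srpr at 0.37 (adjusted p = 0.0179).

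In the eIF2 and tRNA synthetase lists 12 of 15 and 12 of 13 genes had a fold change above 0 in males, and 4 of 15 and 4 of 13 with library size alone. Of 15 genes for eIF2, its kinases and its exchange factor 4 rose and none fell, or 26.7% beside the 20.7% called over all genes. With upper-quartile scaling 2 rose and none fell, and with library size alone none rose and 1 fell. The 4 were led by the exchange factor subunits Eif2b1 at 0.42 (SE 0.082) and Eif2b5 at 0.34 (SE 0.079). Of 13 cytosolic aminoacyl-tRNA synthetase genes, Xpot included, 5 rose and 1 fell, or 46.2% (2 and 1 with upper-quartile scaling, none and 1 with library size alone). Tars rose by 0.53 (SE 0.13) and Mars by 0.33 (SE 0.085), and Wars, which interferon gamma also induces, fell by 0.45 (SE 0.12). The difference between the sexes passed for 1 of 15 eIF2 genes (6.67%), Eif2b1 at 0.50 (edgeR adjusted p = 0.00889), near the 5.05% over all genes. It passed for 4 of 13 synthetase genes, or 30.8% (1 gene with size factors or upper-quartile scaling). Among them were Mars at 0.53 (adjusted p = 0.00787), Eprs at 0.50 (adjusted p = 0.0278) and Nars at 0.50 (adjusted p = 0.0402). The male medians of the chaperone, degradation, translocon, eIF2 and synthetase lists were 0.27, 0.23, 0.23, 0.22 and 0.24 with TMM and -0.025, -0.054, -0.052, -0.056 and -0.050 with library size alone, where the median of all genes was -0.22. Relative to all genes they were 0.21, 0.17, 0.18, 0.16 and 0.18 in the former and 0.19, 0.16, 0.17, 0.16 and 0.17 in the latter. A scaling moves the genes of a list and all genes by nearly the same amount, so this closeness was given in advance and adds no support.

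Of 18 regulators downstream of ATF4 and CHOP 1 rose and 3 fell in males, or 22.2% beside the 20.7% called over all genes. Chac1, a glutathione-degrading enzyme, rose from 1.49 ± 0.275 to 3.17 ± 1.21 CPM (SD, n = 7), a log2 fold change of 1.09 (SE 0.27, edgeR adjusted p = 0.00402). Atf3, a stress-induced transcription factor, fell by 1.91 (SE 0.34), Nupr1, a stress-induced transcriptional regulator, by 1.38 (SE 0.26), and Tnfrsf10b, a death receptor, by 1.53 (SE 0.33). Of 19 genes of amino acid synthesis and transport 2 rose and 6 fell, or 42.1% beside the same 20.7%, with a median of -0.35. Shmt2 and Cth, enzymes of serine and cysteine metabolism that hepatocytes express, rose by 0.45 (SE 0.086) and 0.52 (SE 0.16). Slc7a11, the cystine transporter, fell by 3.68 (SE 0.67) from a level already near 0, 0.427 ± 0.280 CPM in male WT against 0.0307 ± 0.0323 in male SIRT6-tg (SD, n = 7). Slc1a5, a neutral amino acid transporter, fell by 1.13 (SE 0.16) and Aldh18a1, a proline synthesis enzyme, by 1.28 (SE 0.21). The T cell and macrophage markers given above fell in the same comparison, and the part of those cells in these falls was not tested. The difference between the sexes passed for 2 of the 18 regulators (11.1%), Chac1 at 1.505 (edgeR adjusted p = 0.0156) and Tnfrsf10b at -1.74 (adjusted p = 0.0227). It passed for 2 of the 19 amino acid genes (10.5%), Slc1a5 at -0.98 (adjusted p = 0.00957) and Slc7a11 at -3.43 (adjusted p = 0.0431). Over all genes it passed for 5.05%.

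Of 11 sensors and transducers of ER stress tested, 1 rose and 1 fell in males, or 18.2% beside the 20.7% called over all genes. Creb3l3, a liver-enriched membrane-bound transcription factor, rose by 0.42 (SE 0.12), and Creb3l1, a related factor, fell by 1.04 (SE 0.16) from a level of 2.14 ± 0.513 CPM (SD, n = 7) in male WT. For Creb3l1 the difference between the sexes was -1.01 (edgeR adjusted p = 0.00697). It was the 1 gene of the 11 to pass, or 9.09% beside 5.05% over all genes. The list's median was 0.070, near that of all genes.

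**Figure D4:**
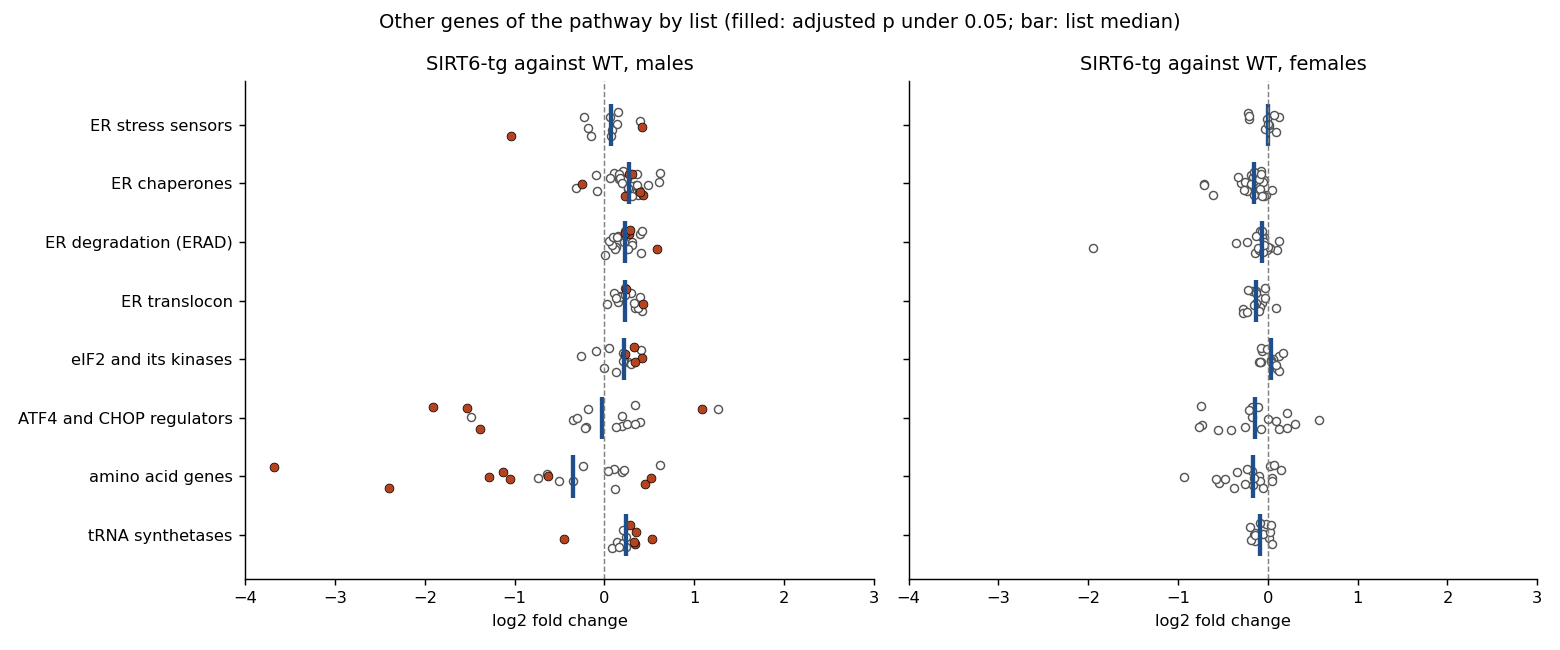
Log2 fold change of SIRT6-tg against WT for each of the other pathway genes in 8 lists, in males and in females; filled points passed an adjusted p of 0.05 and bars are list medians. In males the ER chaperone, degradation, translocon, eIF2 and synthetase lists lie mostly right of 0 with medians of 0.22 to 0.27 (-0.056 to -0.025 with library size alone), the amino acid list reaches down to -3.68, and in females no point is filled.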

How the data were processed

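RNA-seq counts were analysed for 28 livers, 7 in each of 4 groups taken from the labels. Per the submitters' processing notes and the study's methods, the authors aligned single-end reads to mm10 with STAR 2.5.0a, and the deposited values are raw counts of uniquely mapped reads per GENCODE gene made with HTSeq; the strand setting is not given in the sources used here. The table has 49585 features and no per-sample column without a sample. Symbols and coordinates were taken from GENCODE annotation of GRCm38 for 49326 of them, and CPM per kilobase used the union of annotated exons. Genes with a mean of 0.5 or more normalized counts were tested, 21583 in all.

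The genotype effect in each sex, their difference and male WT against female WT were tested with edgeR 4.0.16 (R 4.3.3; TMM, robust quasi-likelihood F-test, 1 fit over 28 libraries), with Benjamini-Hochberg adjustment over all tested genes and a threshold of 0.05. The procedure was tested on simulated data. The labels state no pairing of libraries of the same number. Per the study, each library came from a separate mouse. DESeq2 1.42.0, limma 3.58.1 and sva 3.50.0 served the alternatives. The permutation test for correlations used 100000 permutations within groups, two-sided, on log2 CPM with a prior count of 2. Depth limits the rarest gene, Asns, to 4 counts in its lowest library; the other members had at least 107.

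Members, lists and tests were chosen with earlier results of these data known. Genes named were the members; from each pathway list, up to 2 genes called higher and up to 2 called lower in males and up to 3 called for the difference between the sexes, by smallest adjusted p; and the 5 most like Hspa5 or Asns. A gene that this rule names is not reported here. Proteins were not used here.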

Additional observations from a re-analysis of the deposited data

Results flagged for a closer look

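In 8 of 40 sets of 7 livers (10 genes in 4 groups), the highest liver was set apart from the next by more than the share of the whole range that Dixon's test allows at 95%. The nominal rate of 1 in 20 holds for independent, normally spread values. These sets of CPM share the same livers, so that rate cannot judge the 8. The livers numbered 6 account for 5 of them: Hspa5 at 1021 CPM in male WT and 2106 in male SIRT6-tg, Creld2 at 124 and 196 CPM in the same livers, and Sdf2l1 at 70.8 CPM in male WT. The others were Dnajb9 at 93.2 CPM in female WT liver 1, Herpud1 at 438 CPM in female SIRT6-tg liver 5 and Asns at 11.3 CPM in female WT liver 3. Both livers numbered 6 were highest for Hspa5, Creld2, Sdf2l1 and Xbp1 in their group, but for Herpud1 the WT liver was lowest and the SIRT6-tg liver highest. The labels give nothing that the livers numbered 6 share beyond sex and number.

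The genotype effect differed between the sexes by its own test, as the male minus the female log2 fold change, for Hspa5 at 1.16, Xbp1 at 0.80 and Dnajb9 at 0.67 among the members. Among the named pathway genes it was above 0 for Hyou1 at 1.23, P4hb at 0.50, Ppib at 0.53, Derl2 at 0.62, Srpr at 0.37, Eif2b1 at 0.50, Chac1 at 1.505, Mars at 0.53, Eprs at 0.50 and Nars at 0.50, and below 0 for Creb3l1 at -1.01, Tnfrsf10b at -1.74, Slc1a5 at -0.98 and Slc7a11 at -3.43. Sirt6 differed by 3.29 in the same contrast, so sex and transgene level cannot be told apart.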

How the results depend on the processing

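The genotype calls in males depended on the scaling. Members called in males were 5 with TMM, size factors, other count filters, DESeq2 and 2 surrogate variables, 2 with upper-quartile scaling, 0 with library size alone, 3 with each sex fitted separately and 3 to 5 with 1 library left out; the low counts came without male WT liver 2, 4 or 7. Pathway genes called in males were 36, and 22 (more lower than higher) with upper-quartile scaling, 25 (likewise) with library size alone, 72 with surrogate variables, and 26 to 59 with 1 library left out, 59 without male WT liver 6. In females DESeq2 called 1 member, surrogate variables 1 pathway gene. For the difference between the sexes, members were 3, 0 with library size alone and 3 to 5 with 1 library left out, 5 without male WT liver 1; pathway genes were 20, 13 with size factors, 11 with upper-quartile scaling, 10 (all negative) with library size alone, 12 without a count filter, 60 with surrogate variables and 10 to 25 with 1 library left out. Between WT sexes, members were 1, 1 in the other direction (Asns) with library size alone, 2 with filterByExpr, DESeq2, the replicate block or without both male livers numbered 6 (chosen after seeing the data), and 0 to 2 with 1 library left out; pathway genes were 46 with library size alone and 49 with surrogate variables, against 23. Correlated pairs numbered 4, 1 without those livers, 1 without the 2 farthest libraries and 1 to 5 with 1 library left out. The causes were not tested.

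Single fold changes that changed sign were near 0, uncalled or relative to hepatocyte genes. In males, relative to hepatocyte genes, they were Atf4 at -0.075, Ddit3 at -0.33, Sdf2l1 at -0.18 and Trib3 at -0.31. Ddit3 was at -0.019 with upper-quartile scaling, -0.23 with library size alone and -0.015 with surrogate variables. With library size alone Sdf2l1 was at -0.094 and Trib3 at -0.19. Trib3 was at -0.12 without both livers numbered 6. Asns was at 0.60 with the replicate block and 0.25 with surrogate variables. In females Herpud1 was 0.0020 with library size alone, 0.015 with surrogate variables and 0.043 relative to hepatocyte genes. For the difference Ddit3 was -0.15 with library size alone. Relative to hepatocyte genes the difference was -0.13 for Atf4, -0.38 for Ddit3 and -0.23 for Trib3. With 1 library left out, male values spanned -0.068 to 0.13 for Ddit3, -0.10 to 0.52 for Sdf2l1, -0.29 to 1.12 for Creld2, -0.031 to 0.18 for Trib3 and -0.28 to 0.30 for Asns, and female values -0.16 to 0.057 for Herpud1.

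The deviations of same-numbered livers from their group means correlated between -0.28 and 0.27 over all genes. This cannot show whether the livers shared a litter, cage or day. The labels state no pairing by number. With the replicate block the members called in males stayed at 5 and those for the difference at 3. Depth limits Asns in females, where some libraries held under 10 counts.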
